A study of Mus musculus with 23 samples.

Results

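The genes described here are 35 members of glucose breakdown and of the response to low oxygen, 20 of them glycolytic enzymes, regulators and transporters and 15 other hypoxia genes. They were chosen by name, and every array probe annotated with 1 of these symbols was taken. The array held 49 probes for 32 of the 35 genes, out of 25697 probes in all. Of these, 29 genes passed the filter on dim signals (16 glycolytic and 13 other hypoxia genes), out of 9732 genes measured.

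The samples were 23 oral tumours from C57BL/6 mice, isolated after 21 days of growth, and the messenger RNA of each was read on 1 Illumina MouseRef-8 v2 array. There were 5 tumours each of KHR, KHR-N-/- and KR-N+/-, and 4 each of KHR-N+/- and KR-N-/-. The suffix N+/- or N-/- stands for the Notch1 genotype (Notch1+/- or Notch1-/-), and KHR, which carries no such suffix, is taken as the group with intact Notch1 that the series title names. The labels do not expand KHR or KR, name no promoter or Cre driver, and give no separate ages. They number biological replicates and do not say that each tumour came from its own animal. The p-values therefore cover only the spread among these tumours, which may not be a spread between animals. KR tumours with both Notch1 copies were not analysed here.

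Glycolysis turns glucose into pyruvate, and tumour cells often convert that pyruvate to lactate even when oxygen is present. When oxygen is short, the prolyl hydroxylases of the Egln family no longer mark the transcription factor HIF-alpha for destruction, and HIF then raises genes for glucose uptake, glycolysis, acid export, blood vessel growth and collagen hydroxylation. Egln3, Adm, Car9 and Vegfa are among its well-known targets. Notch1 is a receptor whose cleaved intracellular part acts with the DNA-binding protein RBPJ, and it promotes differentiation in stratified epithelia such as that of the mouth.

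All levels below are log2 intensities after background correction and quantile normalization, which gives all arrays the same distribution of signals. Means are given ± SD over the tumours of a group, with n as above. A level of 1 probe is not comparable with that of another probe. A difference is in log2 units, first-named group minus second, with its standard error (SE). A gene is called higher or lower, or said to have risen or fallen, where limma's adjusted p (Benjamini-Hochberg over all 9732 genes of a comparison) was under 0.05.

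The Notch1 probe was read first as a check of the labels. It read 8.15, 7.81, 8.05, 8.66 and 8.67 in the KHR tumours, 6.60, 7.52, 5.68 and 7.40 in KHR-N+/- and 5.80, 5.77, 5.72, 5.40 and 5.68 in KHR-N-/-. It read 7.87, 7.60, 8.13, 7.44 and 7.57 in KR-N+/- and 6.08, 6.52, 5.89 and 5.61 in KR-N-/-. Group means followed the labels, but KHR-N+/- replicate 3 lay within the range of the KHR-N-/- tumours. The labels do not say which part of the gene was deleted, so the probe is a check only as far as it lies there. KHR replicate 5 also stood apart, with a mean level of 7.39 over 14 fibroblast and matrix markers against 6.24 to 6.33 in the other KHR tumours. Counts of calls without both arrays are given beside the main ones. Mean array intensity before normalization ran from 142.4 to 366.4 and was lower in the KR groups (214.1 and 192.4) than in the KHR groups (260.5, 311.5 and 261.6). Basal keratinocyte markers (9 of 10 measured) averaged from 9.80 in KHR-N+/- to 10.65 in KR-N-/-, so the epithelial markers were present in every group.

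The promoters of 4 genes that recur below are shown because these genes changed in the comparisons of Notch1 genotype: Hk2, Adm and Ddit4, which were higher in KHR-N-/- than in KHR, and Pfkfb4, which was lower. Each is the 250 bases before an annotated start in RefSeq (GRCm38.p6), written 5′ to 3′ on the strand of the gene. The Pfkfb4 window lies inside the annotated gene, which begins at chr9:108988272. Capitals mark ACGTG or GCGTG, the core of the HIF binding site, or TGGGAA, the core of the RBPJ site, on either strand. The windows lie at chr6:82774455-82774704 (minus strand) for Hk2, chr7:110627407-110627656 (plus strand) for Adm, chr10:59951771-59952020 (minus strand) for Ddit4 and chr9:108991652-108991901 (plus strand) for Pfkfb4.
Hk2: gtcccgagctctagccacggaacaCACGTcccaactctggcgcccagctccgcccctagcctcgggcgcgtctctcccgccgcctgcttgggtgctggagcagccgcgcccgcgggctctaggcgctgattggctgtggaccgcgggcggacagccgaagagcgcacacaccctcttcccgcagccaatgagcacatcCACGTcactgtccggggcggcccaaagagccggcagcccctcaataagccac
Adm: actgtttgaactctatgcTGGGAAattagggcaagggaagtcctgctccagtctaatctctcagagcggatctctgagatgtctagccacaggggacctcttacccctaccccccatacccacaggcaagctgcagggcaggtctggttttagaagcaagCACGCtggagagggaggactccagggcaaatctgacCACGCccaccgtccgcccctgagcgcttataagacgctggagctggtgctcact
Ddit4: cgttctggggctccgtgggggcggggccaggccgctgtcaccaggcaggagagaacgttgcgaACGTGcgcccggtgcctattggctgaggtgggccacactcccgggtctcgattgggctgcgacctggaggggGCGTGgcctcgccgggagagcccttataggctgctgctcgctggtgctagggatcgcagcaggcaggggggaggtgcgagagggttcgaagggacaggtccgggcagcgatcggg
Pfkfb4: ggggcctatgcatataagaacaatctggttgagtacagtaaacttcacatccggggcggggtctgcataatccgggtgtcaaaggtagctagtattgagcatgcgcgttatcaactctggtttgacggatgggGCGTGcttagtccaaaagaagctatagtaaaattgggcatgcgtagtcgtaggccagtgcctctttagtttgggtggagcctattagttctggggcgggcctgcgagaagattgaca
Hk2 held ACGTG at 2 places, Adm held GCGTG at 2 places and TGGGAA at 1, Ddit4 held each HIF core at 1 place, and Pfkfb4 held GCGTG at 1. Over all members with a window (32 of the 35; Slc2a3, Ndrg1 and Bnip3l were not matched), ACGTG or GCGTG stood in 36 of 45 windows (80.0%), against 38.6% of all 32851 promoter windows of the same length. The share for TGGGAA was 24.4% in the member windows and 21.6% in all. A match of letters is a description of the window, and it shows no binding.

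Of the 29 measured members, 14 differed somewhere between the 5 groups, against 33% of all 9732 genes (limma's moderated F test). The smallest adjusted p-values of this test were those of Ddit4, Hk2, Pdk1 and Pfkfb4. Over the 6 pairwise comparisons there were 27 calls on 17 members, 8 of them glycolytic and 9 other hypoxia genes. The mean over the 16 glycolytic genes was 9.15 ± 0.20 in KHR, 9.19 ± 0.08 in KHR-N+/-, 9.16 ± 0.06 in KHR-N-/-, 9.01 ± 0.02 in KR-N+/- and 8.94 ± 0.07 in KR-N-/-. Over the 13 other hypoxia genes it was 7.16 ± 0.10, 7.33 ± 0.14, 7.51 ± 0.13, 7.09 ± 0.04 and 7.16 ± 0.05 in the same order. Over all 6 comparisons, single glycolytic genes moved in both directions.

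**Figure D1:**
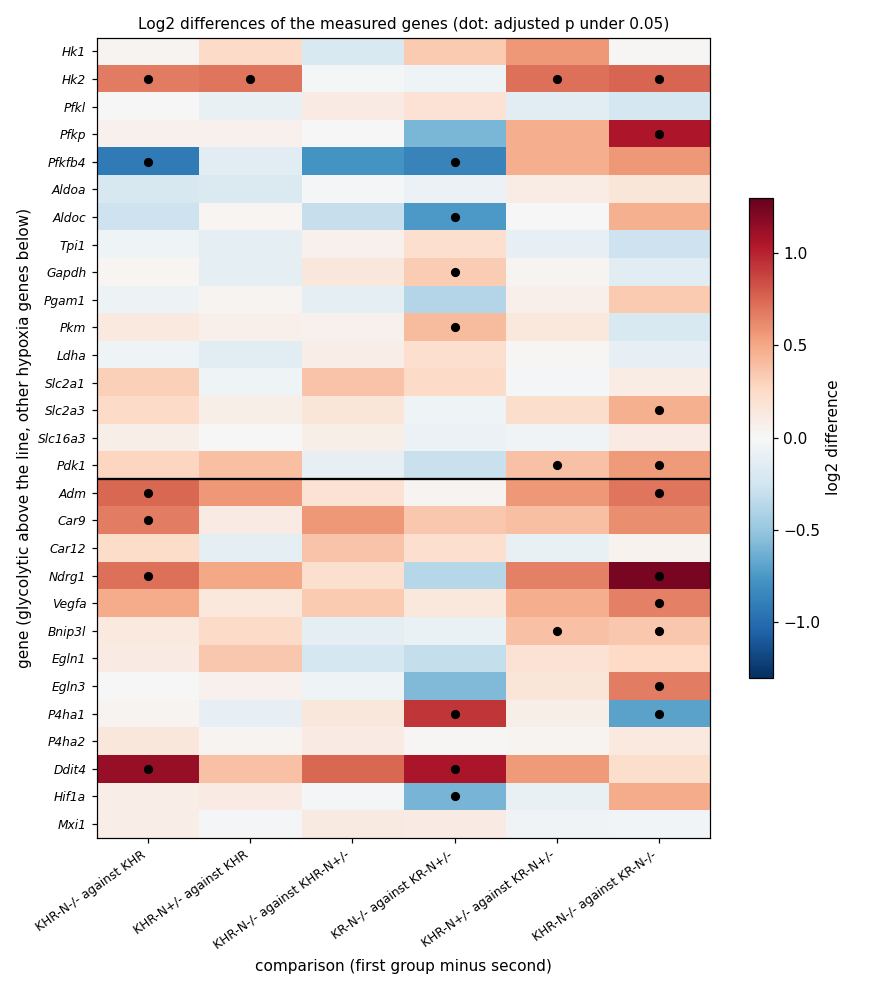
Log2 differences of the 29 measured members (rows, glycolytic genes above the line) in the 6 comparisons (columns, first group minus second), with red for higher and blue for lower. A dot marks an adjusted p under 0.05, and the column of KHR-N-/- against KR-N-/- holds 10 of the 27 dots while that of KHR-N-/- against KHR-N+/- holds none.

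Complete loss of Notch1 in KHR tumours went with higher Ddit4, Adm, Hk2, Ndrg1 and Car9 and lower Pfkfb4. These 6 of 29 members (5 higher, 1 lower) compare with 7.34% of all genes called in KHR-N-/- against KHR (4.57% higher, 2.76% lower), and without the 2 arrays named above 7 members passed together with 12.9% of all genes. Of the 13 other hypoxia genes, 4 were higher and their median difference was 0.15, beside 0.01 over all genes. Of the 16 glycolytic genes, 1 was higher and 1 lower, with a median of 0.04. Vegfa (0.48, adjusted p = 0.0674), Slc2a1 (0.31, adjusted p = 0.0860) and Pdk1 (0.28, adjusted p = 0.0967) did not pass. Fibroblast and matrix markers (13 of 14) and muscle markers (13 of 17) were higher in KHR-N-/- too, and the fits with their levels as covariates are given after the members.

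With 1 copy of Notch1 lost, only Hk2 passed among the members: it was higher in KHR-N+/- than in KHR, against 1.25% of all genes called (0.822% higher, 0.432% lower). Without the 2 arrays 1 member also passed, with 1.81% of all genes. Between KHR-N-/- and KHR-N+/- no member passed under limma, where 0.103% of all genes did (0.0719% higher, 0.0308% lower). An unadjusted p under 0.05 was found for 5 of 29 members and for 8.14% of all genes. In that comparison Ddit4 differed by 0.75 (SE 0.17, adjusted p = 0.0960) and Pfkfb4 by -0.78 (SE 0.25, adjusted p = 0.274), and their values did not overlap between the groups. Without the 2 arrays 1 member, Ddit4, passed together with 0.832% of all genes.

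In KR tumours, loss of the remaining Notch1 copy went with higher Ddit4, P4ha1, Pkm and Gapdh and with lower Pfkfb4, Aldoc and Hif1a. These 7 of 29 members compare with 16.2% of all genes called in KR-N-/- against KR-N+/- (9.62% higher, 6.63% lower). Without the 2 arrays 8 members passed together with 18% of all genes. The median difference was -0.06 over the glycolytic genes and 0.04 over the other hypoxia genes, beside 0.04 over all genes. Fibroblast and matrix markers (10 of 14) were higher in KR-N-/- as well.

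Ddit4 and Pfkfb4 passed in both tumour types, in comparisons that share no tumour. The controls differ, being KHR with intact Notch1 in 1 type and KR-N+/- in the other. Whether the step from N+/- to N-/- acts differently in the 2 types was tested as an interaction (KHR type minus KR type). No member passed this test and 0% of all genes did, while 3 members and 8.15% of all genes had an unadjusted p under 0.05. The interaction was -0.31 for Ddit4 (95% interval -0.82 to 0.19), 0.09 for Pfkfb4 (-0.66 to 0.83) and -0.78 for P4ha1 (-1.36 to -0.21, adjusted p = 0.469). These intervals do not show that the effects in the 2 types are equal.

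The KHR and KR tumours were compared at each shared Notch1 genotype. In KHR-N-/- against KR-N-/-, Hk2, Pfkp, Slc2a3, Pdk1, Adm, Ndrg1, Vegfa, Bnip3l and Egln3 were higher and P4ha1 was lower. These 10 of 29 members compare with 12.8% of all genes (6.31% higher, 6.5% lower), and without the 2 arrays 12 passed together with 13.9% of all genes. The median difference was 0.35 over the other hypoxia genes and 0.13 over the glycolytic genes, beside -0.03 over all genes. In KHR-N+/- against KR-N+/-, Hk2, Pdk1 and Bnip3l were higher, 3 of 29 members against 5.57% of all genes (3.2% higher, 2.37% lower). Without the 2 arrays 2 passed with 3.89% of all genes, and without KHR-N+/- replicate 3 alone none did.

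Scaling matters for these comparisons of tumour type. With each array scaled to its median in place of quantile normalization, the median of all genes moved to 0.65 in KHR-N+/- against KR-N+/- and to 0.39 in KHR-N-/- against KR-N-/-, and 26 members passed in the former together with 46.8% of all genes. Differences of tumour type are therefore measured against the rest of the genes.

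Hexokinases phosphorylate glucose on entry. Hk2, the inducible form that binds mitochondria, read 10.06, 10.07, 10.38, 9.65 and 10.49 in KHR, 10.97, 10.49, 11.14 and 10.74 in KHR-N+/- and 10.73, 10.44, 10.97, 11.01 and 10.90 in KHR-N-/-. It read 10.04, 9.96, 10.32, 10.26 and 9.99 in KR-N+/- and 10.05, 9.72, 10.19 and 10.26 in KR-N-/-. KHR tumours with 1 or no Notch1 copy were high, and KHR tumours with intact Notch1 lay with both KR groups. The KHR-N+/- and KHR-N-/- values stood above those of the KR group of the same genotype with no overlap, while KHR overlapped both. Hk2 was 1.6-fold higher in KHR-N-/- than in KHR (0.68, SE 0.15, adjusted p = 0.00709) and 1.63-fold higher in KHR-N+/- than in KHR (0.70, SE 0.16, adjusted p = 0.0315). Against KR tumours it was 1.65-fold higher with 1 copy (0.72, SE 0.16, adjusted p = 0.00979) and 1.69-fold higher with none (0.76, SE 0.16, adjusted p = 0.00475). The last of these calls held under each of the 15 alternative settings tried. The call in KHR-N+/- against KHR was lost without KHR replicate 1 or 2 or without KHR-N+/- replicate 1, 3 or 4. That in KHR-N+/- against KR-N+/- was lost without KHR-N+/- replicate 3. Hk1, the form found in most tissues, did not pass in any comparison (differences from -0.20 to 0.56).

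Phosphofructokinase is the main control point of the pathway, and Pfkfb4 makes and removes its activator. Pfkfb4 read 9.06, 9.30, 9.75, 8.53 and 8.17 in KHR, 9.56, 8.62, 8.52 and 8.55 in KHR-N+/- and 8.34, 7.77, 8.21, 8.02 and 7.85 in KHR-N-/-. It read 8.50, 8.19, 8.00, 8.20 and 8.82 in KR-N+/- and 7.41, 7.41, 7.71 and 7.38 in KR-N-/-. The groups without Notch1 were lowest in each tumour type, and only KHR replicate 5 lay among the KHR-N-/- values. Pfkfb4 was 1.9-fold lower in KHR-N-/- than in KHR (-0.92, SE 0.24, adjusted p = 0.0155) and 1.82-fold lower in KR-N-/- than in KR-N+/- (-0.87, SE 0.25, adjusted p = 0.0215). The first call was lost without KHR replicate 2 or 3, and the second without KR-N+/- replicate 5 or KR-N-/- replicate 1, 2 or 4. A second, dimmer Pfkfb4 probe, detected on 6 arrays, gave -0.14 and -0.04. It also gave -0.26 against -0.78 for the brightest probe in KHR-N-/- against KHR-N+/-, and -0.11 against 0.56 in KHR-N-/- against KR-N-/-, where neither probe passed.

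Pfkp, the platelet-type phosphofructokinase, separated the tumour types without Notch1. It read 7.32, 7.61, 7.63, 8.13 and 7.63 in KHR-N-/- and 6.65, 6.52, 7.00 and 6.27 in KR-N-/-, with no overlap. It was 2.08-fold higher in the former (1.05, SE 0.24, adjusted p = 0.00586). Its means were 7.60 ± 0.52, 7.67 ± 0.50 and 7.20 ± 0.22 in the remaining groups. The second Pfkp probe, detected on 19 arrays, gave 0.44 (SE 0.18, adjusted p = 0.108 over all kept probes, as for every second probe below). In KR-N-/- against KR-N+/- the probes gave -0.08 and, for the brightest, -0.59, and in the interaction 0.07 and 0.59, none of which passed. Pfkl, the liver-type enzyme, did not pass in any comparison.

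Aldolase splits the sugar phosphate. Aldoc, the brain-type form, read 7.57, 7.25, 7.11, 7.16 and 7.20 in KR-N+/- and 6.41, 6.35, 6.54 and 6.74 in KR-N-/-, and every KR-N-/- value lay below every KR-N+/- value. It was 1.68-fold lower in KR-N-/- (-0.75, SE 0.18, adjusted p = 0.0071). In KHR and KHR-N-/- it averaged 7.24 ± 0.44 and 6.97 ± 0.24, a difference of -0.27 that did not pass (adjusted p = 0.388), and in KHR-N+/- it averaged 7.27 ± 0.25. Aldoa, the muscle-type form that many tumours use, did not pass in any comparison (-0.21 to 0.16).

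The later enzymes of the pathway turn triose phosphate into pyruvate and lactate. Gapdh, which oxidises glyceraldehyde phosphate, read 12.63, 12.94, 12.79, 12.81 and 12.90 in KR-N+/- and 13.08, 13.19, 13.27 and 13.05 in KR-N-/-. Pkm, pyruvate kinase, which makes pyruvate and ATP, read 12.43, 12.56, 12.48, 12.42 and 12.38 in KR-N+/- and 12.73, 12.98, 12.86 and 12.87 in KR-N-/-. Both stood higher in all 4 tumours without Notch1 than in any with 1 copy. The rises were small, 1.26-fold for Gapdh (0.33, SE 0.11, adjusted p = 0.0488) and 1.33-fold for Pkm (0.41, SE 0.12, adjusted p = 0.0188). A second Gapdh probe, detected on all 23 arrays, gave 0.25 and did not pass (adjusted p = 0.142). When each array was left out in turn, the Gapdh call held in 6 of 23 fits and that of Pkm in all but the fit without KR-N-/- replicate 2. In KHR tumours neither differed by more than 0.15 between any pair of groups. Gapdh averaged 12.98 ± 0.23 with intact Notch1, 12.85 ± 0.05 with 1 copy and 13.01 ± 0.19 with none. The Pkm means there were 12.53 ± 0.24, 12.59 ± 0.17 and 12.66 ± 0.16. Pgam1 (phosphoglycerate mutase), Ldha (lactate dehydrogenase) and Tpi1 (triose phosphate isomerase) passed in no comparison.

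Tpi1 gave opposite readings by probe. Its brightest probe differed by 0.22 in KR-N-/- against KR-N+/- and by -0.27 in KHR-N-/- against KR-N-/-, and neither passed. A dimmer probe of the same gene, detected on 21 arrays, gave -0.66 (SE 0.17, adjusted p = 0.0133) and 0.84 (SE 0.17, adjusted p = 0.00331). A further probe, detected on all 23 arrays, gave 0.06 and -0.04. In the interaction the brightest probe gave -0.16 and the dimmer one 0.45. The direction for Tpi1 is therefore not settled by these data.

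Glucose and lactate cross the membrane through carriers. Slc2a3, a high-affinity glucose transporter, read 4.93, 5.02, 4.89, 5.01 and 4.89 in KHR-N-/- and 4.25, 4.89, 4.46 and 4.37 in KR-N-/-. It was detected in 5 of 5 of the former and 2 of 4 of the latter, and the ranges met at 4.89. The difference was 0.46, SE 0.13, adjusted p = 0.0259, and with the authors' deposited values, floored at 16, it was 0.045. Its mean was 4.70 ± 0.27 in KHR, 4.78 ± 0.16 with 1 copy and 4.55 ± 0.14 in KR-N+/-. Slc2a1, the main glucose transporter of many epithelial cells, differed between the 5 groups by the F test (adjusted p = 0.0331) but in no single comparison. Its means were 10.48 ± 0.21, 10.42 ± 0.14 and 10.79 ± 0.13 in the KHR groups and 10.44 ± 0.18 and 10.69 ± 0.11 in the KR groups. It was thus highest in the groups without Notch1. Slc16a3, a lactate exporter, was detected on 7 arrays and did not pass.

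Pdk1 switches off pyruvate dehydrogenase and so diverts pyruvate from mitochondria. It read 7.32, 6.99, 7.18, 6.89 and 7.13 in KHR, 7.59, 7.44, 7.38 and 7.57 in KHR-N+/- and 7.36, 7.61, 7.48, 7.30 and 7.15 in KHR-N-/-. It read 7.28, 7.11, 7.12, 6.93 and 7.15 in KR-N+/- and 6.90, 6.88, 6.86 and 6.67 in KR-N-/-. KR-N-/- was lowest, below every other tumour of the series but KHR replicate 4, which at 6.89 lay within its range. Pdk1 was 1.47-fold higher in KHR-N-/- than in KR-N-/- (0.55, SE 0.11, adjusted p = 0.00212), a call that held under all 15 alternatives. In KHR-N+/- against KR-N+/- it was 1.3-fold higher (0.38, SE 0.11, adjusted p = 0.0365), with no overlap.

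**Figure D2:**
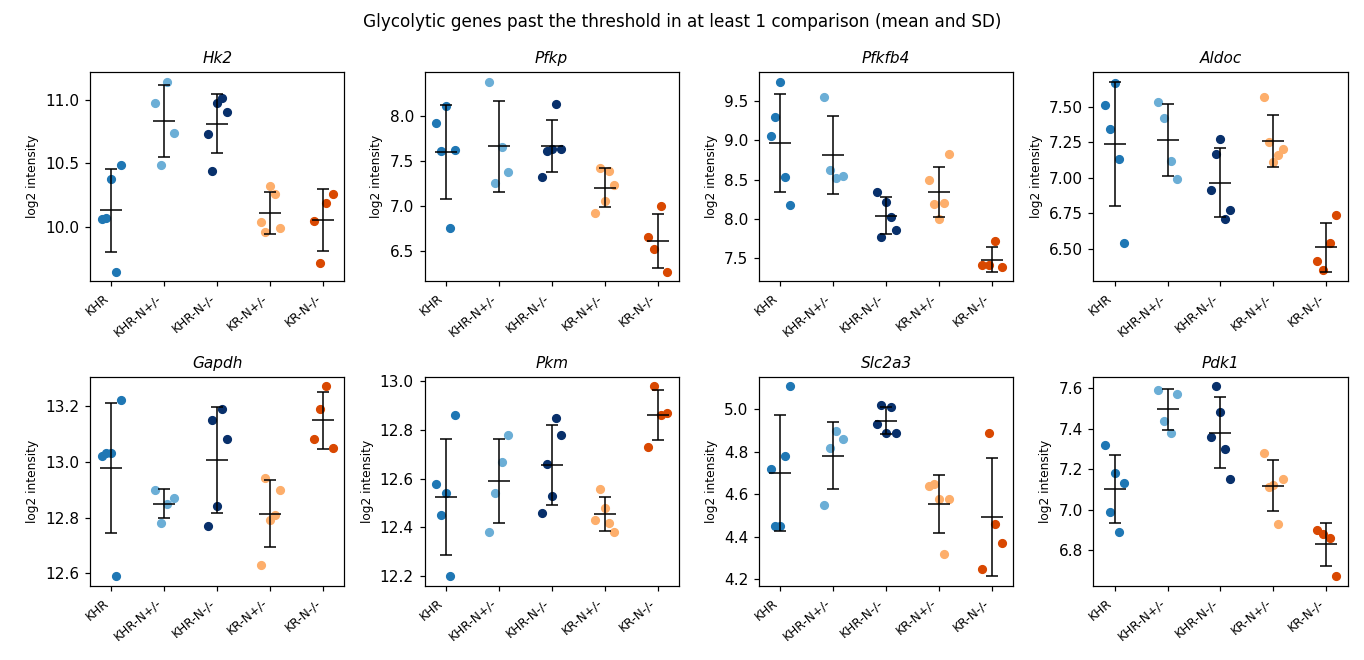
Log2 intensity (vertical axes) of the 8 glycolytic genes past the threshold in at least 1 comparison, by group, with 1 point for each tumour and a bar for mean and SD. Hk2 lies near 10.8 in KHR-N+/- and KHR-N-/- and near 10.1 in the other groups, and Pfkfb4 is lowest in KHR-N-/- and KR-N-/-.

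Ddit4, which restrains mTOR signalling under hypoxia and other stress, had the smallest adjusted p of the F test among the members. It read 8.76, 8.69, 8.60, 8.33 and 9.25 in KHR, 8.71, 9.00, 9.40 and 9.33 in KHR-N+/- and 9.82, 9.87, 9.72, 9.74 and 10.13 in KHR-N-/-. It read 8.86, 8.55, 8.62, 8.37 and 8.39 in KR-N+/- and 9.54, 9.30, 10.02 and 9.62 in KR-N-/-. All 9 tumours without Notch1 read 9.30 or more, and KHR-N+/- replicates 3 and 4 alone among the others exceeded 9.30. Ddit4 was 2.19-fold higher in KHR-N-/- than in KHR (1.13, SE 0.16, adjusted p = 0.000134) and 2.09-fold higher in KR-N-/- than in KR-N+/- (1.06, SE 0.17, adjusted p = 0.000711). Both calls held whichever of the 23 arrays was omitted. With median scaling the differences were 1.259 (adjusted p = 0.0896) and 1.071 (adjusted p = 0.647), and neither passed.

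Adm, adrenomedullin, a peptide that widens blood vessels, was dim and detected on 17 of 23 arrays, namely 3 of 5 KHR, 4 of 4 KHR-N+/-, 5 of 5 KHR-N-/-, 3 of 5 KR-N+/- and 2 of 4 KR-N-/- tumours. It read 4.50, 4.45, 4.88, 4.18 and 4.51 in KHR, 4.86, 5.03, 5.59 and 4.78 in KHR-N+/- and 4.77, 5.28, 5.54, 5.49 and 5.20 in KHR-N-/-. It read 4.34, 4.55, 4.72, 4.73 and 4.21 in KR-N+/- and 4.36, 4.70, 4.86 and 4.29 in KR-N-/-. In KHR-N-/- 4 of 5 tumours stood above every KHR and KR tumour, and replicate 1 did not. Adm was 1.68-fold higher in KHR-N-/- than in KHR (0.75, SE 0.17, adjusted p = 0.0072) and 1.63-fold higher than in KR-N-/- (0.70, SE 0.18, adjusted p = 0.0134). The arrays that did not detect Adm entered these folds at their measured signal. With the authors' deposited values the first difference was 0.616 (adjusted p = 0.0562).

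Vegfa, the main growth factor for blood vessels, was called between the tumour types without Notch1. It read 7.97, 8.38, 8.41, 8.40 and 8.97 in KHR-N-/- and 7.74, 7.64, 8.01 and 7.67 in KR-N-/-, with KHR-N-/- replicate 1 and KR-N-/- replicate 3 in the overlap. It was 1.58-fold higher in KHR-N-/- (0.66, SE 0.17, adjusted p = 0.0132). In KHR and KHR-N-/- its brightest probe averaged 7.94 ± 0.17 and 8.43 ± 0.35. That probe did not pass there, whereas a second probe, detected on all 23 arrays, gave 0.73 (SE 0.17, adjusted p = 0.00885). Tumours with 1 Notch1 copy averaged 8.09 ± 0.31 (KHR-N+/-) and 7.62 ± 0.26 (KR-N+/-).

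Car9 and Car12 are carbonic anhydrases of the cell surface that help export acid. Car9 read 5.49, 5.04, 6.05, 5.55 and 5.27 in KHR and 5.48, 6.40, 6.30, 6.34 and 6.21 in KHR-N-/-. In KHR-N-/- 4 of 5 tumours were above all KHR tumours and replicate 1 lay among them. Car9 was 1.59-fold higher (0.67, SE 0.19, adjusted p = 0.0334). The call was lost without KHR replicate 1 or 2 or without KHR-N-/- replicate 2, 3, 4 or 5. Of its dimmer probes, 1 detected on 12 arrays gave 0.37 (adjusted p = 0.0847) and 1 detected on 8 arrays gave 0.03. The last probe gave -0.14 in KHR-N-/- against KHR-N+/-, where the brightest gave 0.56, and neither passed. In KHR-N-/- against KR-N-/- the brightest probe gave 0.60 and did not pass (adjusted p = 0.0547 over all kept probes). The dimmer probes passed there, with 0.53 on 12 arrays (adjusted p = 0.0121) and 0.25 on 8 arrays (adjusted p = 0.0447). The other groups averaged 5.59 ± 0.42 (KHR-N+/-), 5.20 ± 0.20 (KR-N+/-) and 5.55 ± 0.18 (KR-N-/-). Car12 did not pass in any comparison (-0.12 to 0.37).

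Ndrg1, a stress-induced gene linked to differentiation, read 9.72, 9.54, 10.03, 8.72 and 9.39 in KHR, 10.22, 9.76, 10.37 and 9.59 in KHR-N+/- and 9.52, 10.41, 10.29, 10.21 and 10.55 in KHR-N-/-. It read 9.05, 9.13, 9.75, 9.09 and 9.66 in KR-N+/- and 9.20, 8.80, 8.90 and 9.00 in KR-N-/-. The KR-N-/- tumours were all below the KHR-N-/- tumours. Ndrg1 was 2.34-fold higher in KHR-N-/- than in KR-N-/- (1.23, SE 0.23, adjusted p = 0.00194), which was the widest gap of any member in any comparison and held under all 15 alternatives. A second probe detected on all arrays gave 1.18. Against KHR it was 1.64-fold higher (0.72, SE 0.22, adjusted p = 0.0454), a call that held in 8 of 23 fits with 1 array omitted.

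Bnip3l, a receptor for the removal of mitochondria, read 10.77, 10.91, 10.78 and 10.64 in KHR-N+/- and 10.53, 10.65, 10.81, 10.58 and 10.67 in KHR-N-/-. It read 10.35, 10.37, 10.31, 10.39 and 10.54 in KR-N+/- and 10.33, 10.32, 10.29 and 10.26 in KR-N-/-. The KHR tumours were higher at each Notch1 genotype with no overlap, by 1.3-fold with 1 copy (0.38, SE 0.11, adjusted p = 0.0359) and 1.27-fold with none (0.35, SE 0.11, adjusted p = 0.0342). KHR tumours with intact Notch1 averaged 10.52 ± 0.25. With the muscle level as a covariate the differences were 0.374 (adjusted p = 0.483) and 0.344 (adjusted p = 0.0772). With the array intensity they were 0.365 (adjusted p = 0.225) and 0.334 (adjusted p = 0.122). Both calls were thus lost under both covariates, while the differences moved by less than 0.05.

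The oxygen sensor itself was read through Hif1a, Egln1 and Egln3. Egln3, which hydroxylates HIF-alpha and is itself raised by HIF, read 10.99, 11.19, 11.49, 11.00 and 10.96 in KHR-N-/- and 10.51, 10.44, 10.34 and 10.51 in KR-N-/-, with no overlap. It was 1.6-fold higher in the former (0.67, SE 0.22, adjusted p = 0.0458), a call that held under 7 of 15 alternatives. Its second probe, detected on 12 arrays, gave 0.11. In KR-N-/- against KR-N+/- the second and the brightest probe gave 0.04 and -0.57, and in the interaction -0.14 and 0.51, none of which passed. Elsewhere Egln3 averaged 11.13 ± 0.55 (KHR), 11.19 ± 0.45 (KHR-N+/-) and 11.02 ± 0.28 (KR-N+/-). Hif1a, the HIF-alpha subunit, read 5.75, 5.54, 5.02, 5.03 and 5.27 in KR-N+/- and 4.98, 4.26, 4.73 and 4.92 in KR-N-/-. It was 1.51-fold lower without Notch1 (-0.60, SE 0.20, adjusted p = 0.0415), and 3 of the 4 KR-N-/- tumours had it detected. That call was lost without KR-N+/- replicate 1, 2 or 5 or without KR-N-/- replicate 2, 3 or 4. With the authors' deposited values the difference was -0.637 (adjusted p = 0.0846). The KHR groups averaged 5.11 ± 0.44, 5.22 ± 0.18 and 5.20 ± 0.22 with intact Notch1, 1 copy and none. HIF-alpha is controlled mainly at the protein, which was not measured. Egln1, the main hydroxylase at normal oxygen, was detected on 18 arrays by its brightest probe, which did not pass. In KHR-N+/- against KR-N+/- that probe gave 0.19. A dimmer probe, detected on 14 arrays, gave 0.59 there and passed (SE 0.17, adjusted p = 0.0462). Another, detected on 13 arrays, gave 0.10 and did not pass.

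P4ha1 and P4ha2 are the catalytic subunits of the enzyme that hydroxylates collagen. P4ha1 read 4.40, 4.85, 4.98, 4.99 and 4.63 in KR-N+/-, 5.56, 6.07, 5.57 and 5.59 in KR-N-/- and 5.02, 4.72, 4.88, 5.08 and 5.28 in KHR-N-/-. The KR-N-/- tumours stood above all others but KHR replicate 4 (5.69). P4ha1 was 1.91-fold higher in KR-N-/- than in KR-N+/- (0.93, SE 0.19, adjusted p = 0.00284) and 1.63-fold lower in KHR-N-/- than in KR-N-/- (-0.70, SE 0.19, adjusted p = 0.0196). The difference was 0.04 (SE 0.18) in KHR-N-/- against KHR. Means were 4.96 ± 0.47 in KHR and 4.85 ± 0.26 in KHR-N+/-. P4ha2 did not pass (0.02 to 0.15), and nor did Mxi1, a repressor that opposes Myc (-0.05 to 0.12).

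**Figure D3:**
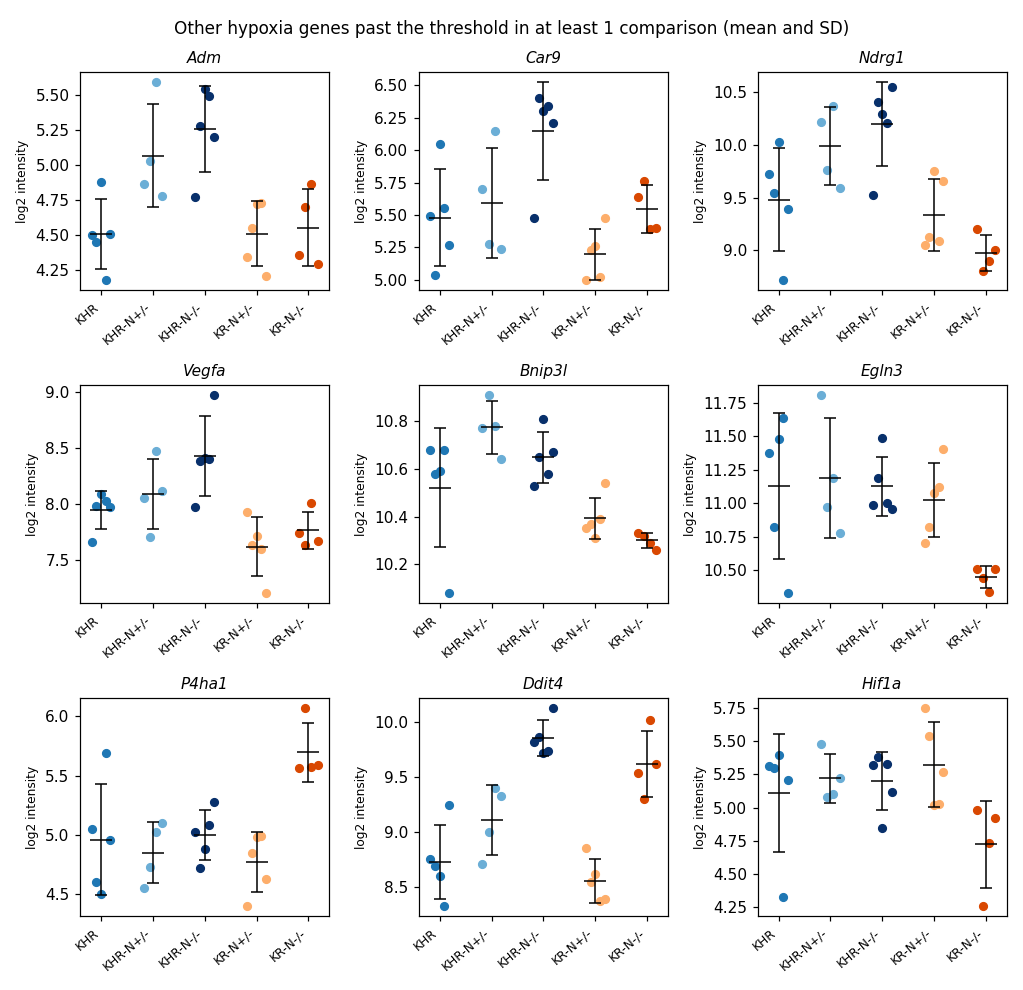
Log2 intensity (vertical axes) of the 9 other hypoxia genes past the threshold in at least 1 comparison, by group, with 1 point for each tumour and a bar for mean and SD. Ddit4 is high in both groups without Notch1, P4ha1 is high in KR-N-/-, and Ndrg1 is lowest in KR-N-/-.

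The members outside these accounts had no usable signal or no probe. Bnip3 was detected on 0 of 23 arrays, and Pfkfb3 and Pgk1 on 1 each. No probe carried the symbols Gpi1, Eno1 or Ankrd37. Of the 29 measured members, 22 were detected on every array. In all, 12 measured members passed in none of the 6 comparisons.

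Markers of other cell types moved along with Notch1 genotype. The mean level of 14 of 16 fibroblast and matrix markers was 6.51 ± 0.49 in KHR, 6.95 ± 0.33 in KHR-N+/-, 7.80 ± 0.29 in KHR-N-/-, 6.70 ± 0.20 in KR-N+/- and 7.66 ± 0.12 in KR-N-/-. Of these markers 13 rose in KHR-N-/- against KHR and 10 in KR-N-/- against KR-N+/-. In bulk tissue, fewer cells of a type and less RNA per cell cannot be told apart. With this marker level as a covariate, no member passed in either comparison, and the share of all genes called fell to 0.925% (90 genes) and 0.175% (17 genes). Ddit4 then differed by 0.36 (adjusted p = 0.505) in KHR-N-/- against KHR and by 0.494 (adjusted p = 0.289) in KR-N-/- against KR-N+/-. The sign of Pfkfb4 turned, to 0.36 (adjusted p = 0.646) and 0.083 (adjusted p = 0.937). In KHR-N-/- against KHR the difference was 0.676 for Car9 (adjusted p = 0.395), 0.629 for Ndrg1 (adjusted p = 0.517), 0.461 for Adm (adjusted p = 0.543) and 0.405 for Hk2 (adjusted p = 0.563). In KR-N-/- against KR-N+/- it was 0.679 for P4ha1 (adjusted p = 0.312), -0.503 for Hif1a (adjusted p = 0.52) and -0.211 for Aldoc (adjusted p = 0.756). Gapdh then differed by 0.123 (adjusted p = 0.826) and Pkm by 0.048 (adjusted p = 0.933). All 10 calls in KHR-N-/- against KR-N-/-, where none of the fibroblast markers passed, remained with this covariate. In that fit 14 members passed together with 18% of all genes, against 12.8% of all genes without the covariate.

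Skeletal muscle markers (17 of 19 measured) averaged 6.75 ± 0.22 in KHR, 7.20 ± 0.18 in KHR-N+/-, 7.56 ± 0.13 in KHR-N-/-, 8.03 ± 0.30 in KR-N+/- and 7.86 ± 0.39 in KR-N-/-. Of them 13 were higher in KHR-N-/- than in KHR, 11 were lower in KHR-N+/- than in KR-N+/-, and 1 was lower in KHR-N-/- than in KR-N-/-. In KR-N-/- against KR-N+/- the muscle markers were mixed, with 2 higher, 2 lower and a median difference of -0.26. With the muscle level as a covariate, Ddit4 was still higher in KHR-N-/- than in KHR (1.06, adjusted p = 0.0436), and it was the only member called there, with 0.853% of all genes. Hk2 in the same comparison was 0.73 (adjusted p = 0.179). In KHR-N+/- against KR-N+/- no member passed with that covariate, and 0.247% of all genes did (24 genes). The differences there were 0.669 for Hk2 (adjusted p = 0.365) and 0.197 for Pdk1 (adjusted p = 0.769). Basal keratinocyte markers were higher in 3 of 9 cases in KHR-N-/- than in KHR and in 5 in KR-N-/- than in KR-N+/-. Of 11 suprabasal markers, 3 were lower in KR-N-/- than in KR-N+/-, with differences of -3.31 in Sprr3, which helps build the cornified layer (SE 0.50, adjusted p = 0.000455), -2.16 in the keratin Krt4 and -1.48 in the keratin Krt13. Ivl, involucrin, alone of this list rose in KHR-N-/- against KHR (1.82, SE 0.32, adjusted p = 0.000897). Macrophage markers were higher in 4 of 8 cases in KHR-N-/- than in KHR and in 2 than in KR-N-/-. Of 5 neutrophil markers, 3 were higher in KHR-N-/- than in KR-N-/-, and 2 were lower in KR-N-/- than in KR-N+/-. Endothelial markers were higher in 2 of 9 cases in KR-N-/- than in KR-N+/-. Of 8 cell cycle genes, 4 were higher in KR-N-/- than in KR-N+/-, 6 in KHR-N+/- than in KR-N+/- and 3 in KHR-N-/- than in KR-N-/-, and 1 was lower in KHR-N-/- than in KHR. The part of these marker lists in the members' differences was not tested. With the array's mean intensity as a covariate, Hk2, Ndrg1 and Pdk1 still passed in KHR-N-/- against KR-N-/-, and they were the only members to do so, with 3.43% of all genes.

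**Figure D4:**
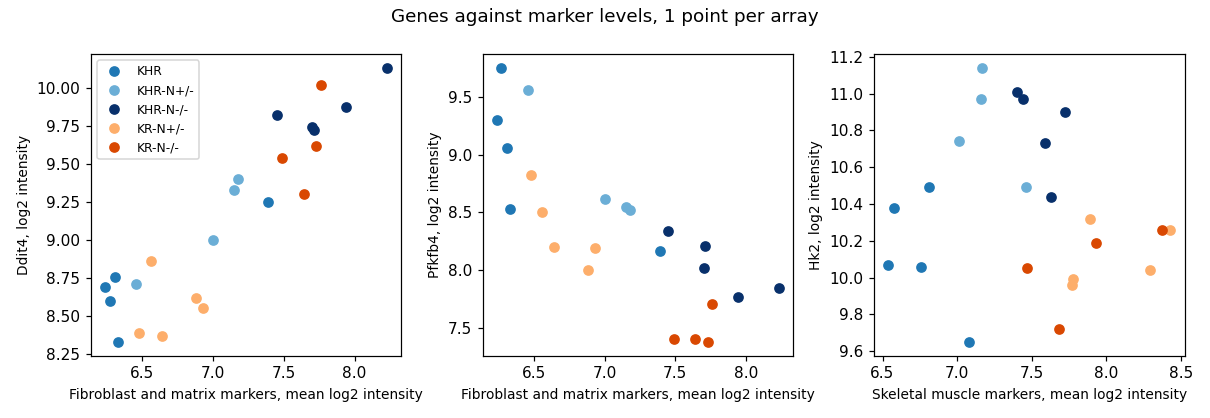
Levels of Ddit4 and Pfkfb4 against the mean level of the fibroblast and matrix markers, and of Hk2 against that of the skeletal muscle markers (both axes in log2 intensity), with 1 point for each tumour, coloured by group. Ddit4 is higher and Pfkfb4 lower in tumours with more fibroblast signal, and KHR replicate 5, at 7.39, lies apart from the other KHR tumours.

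Other genes of these pathways were read from lists that do not overlap the members. Of 20 other isoenzymes and carriers 7 were measured. Eno3, Pfkm and Pgam2, which are the muscle forms of enolase, phosphofructokinase and phosphoglycerate mutase, were lower in KHR-N+/- than in KR-N+/-, with differences of -1.07 (SE 0.20, adjusted p = 0.00258), -1.03 (SE 0.17, adjusted p = 0.000944) and -0.99 (SE 0.28, adjusted p = 0.0365). Pfkfb2, a sister enzyme of Pfkfb4, was lower too (-0.37, SE 0.11, adjusted p = 0.0498), and 4 of 7 compare with 5.57% of all genes. In KHR-N-/- against KR-N-/- Pfkm (-0.56, SE 0.17, adjusted p = 0.0349) and Pfkfb2 (-0.50, SE 0.11, adjusted p = 0.00489) were lower. Adpgk, a glucokinase that uses ADP, was higher in KR-N-/- than in KR-N+/- (0.47, SE 0.14, adjusted p = 0.0272). Only Eno3 passed in KHR-N-/- against KHR (0.85, SE 0.19, adjusted p = 0.0072). Eno3 is also on the muscle marker list, of which 11 of 17 were lower in the first comparison and 13 higher in the second.

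Of 16 further genes of the HIF pathway (subunits, partners and regulators) 10 were measured, and over the 6 comparisons 1 of them passed. This was Ep300, a coactivator of HIF, which was lower in KR-N-/- than in KR-N+/- (-0.43, SE 0.13, adjusted p = 0.0272). Of 42 other HIF targets 34 were measured. Of these, 3 rose and 2 fell in KHR-N-/- against KHR, and in KR-N-/- against KR-N+/- 2 rose and 5 fell, shares of 14.7% and 20.6% beside 7.34% and 16.2% of all genes. Lox, which crosslinks collagen, rose by 1.38 (SE 0.24, adjusted p = 0.000753) and 0.79 (SE 0.25, adjusted p = 0.0346), beside the fibroblast and matrix markers. Edn1, the vasoconstrictor endothelin, was lower in both, with differences of -1.24 (SE 0.25, adjusted p = 0.00272) and -1.05 (SE 0.26, adjusted p = 0.00953). Stbd1, which binds glycogen, was lower in both too (-0.57, SE 0.15, adjusted p = 0.0201, and -0.71, SE 0.16, adjusted p = 0.00492). Pgf, a growth factor related to Vegfa, was higher in KHR-N-/- than in KHR by 0.86 (SE 0.18, adjusted p = 0.00322).

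Insig2, which restrains sterol synthesis, was higher in KHR-N-/- than in KHR (0.57, SE 0.12, adjusted p = 0.00346) and in KHR-N+/- than in KHR (0.71, SE 0.13, adjusted p = 0.00575), and it was the only one of these targets to pass in the latter. In KR-N-/- against KR-N+/- it was lower (-0.51, SE 0.13, adjusted p = 0.00836), whereas KHR-N-/- against KHR-N+/- gave -0.14 (adjusted p = 0.886) and the interaction 0.37 (adjusted p = 0.61). Lower in KR-N-/- as well were Ak4, an adenylate kinase (-0.51, SE 0.17, adjusted p = 0.0388), and Kdm3a, a histone demethylase (-0.51, SE 0.16, adjusted p = 0.0328). Plod1, which hydroxylates collagen lysines, was higher there (0.37, SE 0.11, adjusted p = 0.0288). In KHR-N+/- against KR-N+/- 2 targets passed, Tfrc, the transferrin receptor (0.68, SE 0.15, adjusted p = 0.00711), and Wsb1 (0.59, SE 0.14, adjusted p = 0.0111), a share of 5.88% beside 5.57% of all genes. Between the tumour types without Notch1, 4 targets were higher in KHR-N-/- and 1 lower (14.7%, beside 12.8% of all genes). Selenbp1, a selenium-binding protein, was higher by 1.16 (SE 0.39, adjusted p = 0.0499), Insig2 by 0.71 (SE 0.13, adjusted p = 0.00122) and Tfrc by 0.80 (SE 0.15, adjusted p = 0.00158), while Flt1, a receptor for Vegfa, was lower (-0.86, SE 0.25, adjusted p = 0.0265).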

How the data were processed

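Probe intensities came from the deposited non-normalized table, which holds for each of the 23 arrays a mean intensity, a bead standard error (a signal that is never negative), a bead count and a detection p-value per probe, per the file headers. Per the submitters' processing notes the tools were GenomeStudio and Partek, with versions not given in the sources used here. Per the labels' protocols, RNA was taken with Trizol and treated with DNase. A second deposited table, of processed intensities made by the authors with a normalization that is not stated, served only as an alternative, floored at 16.

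In R 4.3.3 with limma 3.58.1, background was corrected by normexp from the detection p-values (offset 16), intensities of the deposited table were quantile normalized, and log2 was taken. Of 25697 probes, the 13831 with a detection p under 0.05 on 4 or more arrays stayed in, and the brightest probe stood for a gene, which left 9732 genes. A linear model with 1 mean for each of the 5 groups was fitted over all arrays, with 6 pairwise contrasts, 1 interaction and an F test, and p-values were adjusted by Benjamini-Hochberg. Files were read with the data.table package, version 1.17.8, and figures were drawn with matplotlib 3.10.9 under Python 3.11.15. The same fit was checked on simulated data. The 15 alternatives were no background correction, an offset of 50, median scaling, the authors' processed values, a detection limit of 0.01, no filter, the mean of a gene's probes, only the compared groups, array weights, a trended robust fit, the replicate number as a block, the muscle level, fibroblast level or array intensity as a covariate, and leaving out KHR replicate 5 with KHR-N+/- replicate 3. Each array was also left out in turn. The number of arrays limits the precision, since beads of 1 array are not replicates.

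The members and gene lists were chosen with earlier results of these data known. Every member was named, and from each other list up to 3 called genes in each direction, by size. Gene symbols are those of the array's annotation and can be old, and promoters are matched by symbol to RefSeq.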

Additional observations from a re-analysis of the deposited data

Results flagged for a closer look

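Single tumours stood apart from the rest of their group in 12 of the 150 groups of values examined (30 genes, Notch1 included, in 5 groups), by the gap between the outermost value and its neighbour relative to the whole range. Chance alone flags about 1 in 20 groups. Among glycolytic genes, Pfkfb4 read 9.56 in KHR-N+/- replicate 1 (others 8.52 to 8.62) and 7.71 in KR-N-/- replicate 3 (others 7.38 to 7.41). Pgam1 read 8.32 in KHR-N+/- replicate 2 (others 8.43 to 8.44), and Ldha read 12.77 in KHR-N+/- replicate 4 (others 12.50 to 12.53). Slc2a3 read 4.32 in KR-N+/- replicate 4 (others 4.58 to 4.65). Slc16a3, near background throughout, read 4.60 in KHR replicate 1 (others 4.24 to 4.32) and 4.50 in KR-N-/- replicate 3 (others 4.24 to 4.29). Among the other hypoxia genes, Car9 was low in KHR-N-/- replicate 1 at 5.48 (others 6.21 to 6.40), and Vegfa was low in KHR replicate 1 at 7.66 (others 7.97 to 8.09). Bnip3l was low in KHR replicate 5 at 10.08 (others 10.58 to 10.68), the tumour with the high fibroblast and matrix level. P4ha1 was high in KR-N-/- replicate 2 at 6.07 (others 5.56 to 5.59), and Hif1a was low in KHR replicate 4 at 4.33 (others 5.21 to 5.40). What these single values stem from was not tested.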

How the results depend on the processing

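Of the 27 calls, all remained with array weights, a detection limit of 0.01 or a trended robust fit, 26 with the replicate number as a block, 25 without KHR replicate 5 and KHR-N+/- replicate 3, 13 with the fibroblast or the muscle level as a covariate, and 11 with median scaling. The cause of these losses was not tested. Percentages below are the share of all genes called under the same setting. In KHR-N-/- against KHR (6 members called) the count was 1 with median scaling (1.69%) or the muscle covariate (0.853%), 3 with the authors' deposited values (6.13%) or only the compared groups in the fit (3.96%), 11 with array weights (22.9%) and 0 with the fibroblast covariate (0.925%). In KHR-N+/- against KHR (1) it was 2 with no background correction (0.956%), an offset of 50 (1.2%) or array weights (9.16%). It was 0 there with median scaling (0.288%), the authors' values (0.873%), no filter (0.422%), only the compared groups (0%), or the muscle (0.534%) or fibroblast (1.79%) covariate. In KHR-N-/- against KHR-N+/- (0) it was 2 with array weights (2.72%) and 1 without the pair of arrays above (0.832%). In KR-N-/- against KR-N+/- (7) it was 0 with median scaling (0.0308%) or the fibroblast covariate (0.175%). In KHR-N+/- against KR-N+/- (3) it was 26 with median scaling (46.8%), 6 with array weights (11.1%) and 0 with the muscle (0.247%) or the array intensity (1.11%) covariate. In KHR-N-/- against KR-N-/- (10) it was 16 with array weights (23.3%), 6 with the muscle (6.72%) and 3 with the array intensity covariate (3.43%). The F test called 22 members with array weights (49.4%), against 14.

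Leaving out 1 array gave 3 to 7 calls in KHR-N-/- against KHR (3 without KHR replicate 2), 0 to 1 in KHR-N+/- against KHR, 0 to 1 in KHR-N-/- against KHR-N+/- (1 without KHR replicate 4 or 5 or KHR-N+/- replicate 3), and 3 to 10 in KR-N-/- against KR-N+/- (3 without KR-N-/- replicate 2, 4 without KR-N-/- replicate 4 or KR-N+/- replicate 5). It gave 0 to 7 in KHR-N+/- against KR-N+/- (0 without KHR-N+/- replicate 3, 1 without KHR-N+/- replicate 2 or KR-N+/- replicate 3 or 4, 7 without KHR replicate 4), 6 to 12 in KHR-N-/- against KR-N-/- (6 without KHR-N-/- replicate 2 or KR-N-/- replicate 4), 0 to 0 in the interaction and 12 to 19 in the F test. The share of all genes ran in these fits from 4.74% to 13.7%, 0.421% to 2.61%, 0% to 0.473%, 9.22% to 20.4%, 3.15% to 8.94%, 7.05% to 17.3%, 0% to 0.0103% and 26.6% to 40.9%, in the same order. Directions turned for Pfkfb4 with the fibroblast covariate (0.36 in KHR tumours, 0.083 in KR tumours) and, with median scaling in KHR-N+/- against KR-N+/-, for Pfkl (0.781), Tpi1 (0.663), Slc2a1 (0.899), Car12 (0.926) and Mxi1 (0.58). Across groups, the 43 same-numbered pairs of tumours had a median correlation of deviations of 0.053 (-0.328 to 0.476), and 16 of them exceeded 0.1. The 168 pairs with different numbers had a median of -0.01 (-0.543 to 0.571), and 28 of them exceeded 0.1. Of the 23 arrays, 9 correlated best with an array of their own number. The main fit leaves the replicate number out, and what tumours of 1 number share was not tested. With the block the counts were 6, 1, 0, 8, 4 and 12 in the 6 comparisons in the order above, 0 in the interaction and 14 in the F test. The shares of all genes in the 6 comparisons were 8.1%, 1.4%, 0.0719%, 20.5%, 5.71% and 15.9%. The call on Bnip3l in KHR-N+/- against KR-N+/- was lost. Signals near background limit Adm, Slc2a3, Slc16a3 and Egln1, which were detected on 17, 17, 7 and 18 arrays.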

Other observations

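The branches that leave glycolysis were read from further lists. Of 13 genes of the pentose phosphate and serine branches 8 were measured. In KHR-N+/- against KR-N+/- 4 of the 8 passed, beside 5.57% of all genes. In KHR-N-/- against KR-N-/- 4 passed as well, beside 12.8% of all genes. Taldo1, a transaldolase, was lower in KHR-N+/- than in KR-N+/- (-0.75, SE 0.11, adjusted p = 0.000321) and in KHR-N-/- than in KR-N-/- (-0.61, SE 0.11, adjusted p = 0.00158). Pgls, a lactonase of the same branch, was lower in the first of these comparisons alone (-0.57, SE 0.13, adjusted p = 0.00793). Shmt1, the cytosolic serine hydroxymethyltransferase, was higher in both (0.55, SE 0.16, adjusted p = 0.0384, and 0.53, SE 0.16, adjusted p = 0.0274). Phgdh, which opens serine synthesis, was higher in KHR-N-/- than in KHR (0.50, SE 0.14, adjusted p = 0.0357) and than in KR-N-/- (0.66, SE 0.15, adjusted p = 0.00785). Psat1, the next enzyme of serine synthesis, was higher in KHR-N-/- than in KHR (0.38, SE 0.11, adjusted p = 0.0328), in KR-N-/- than in KR-N+/- (0.44, SE 0.12, adjusted p = 0.0136) and in KHR-N+/- than in KR-N+/- (0.43, SE 0.12, adjusted p = 0.0296). Rpia, a pentose phosphate isomerase, was lower in KHR-N-/- than in KHR (-0.47, SE 0.14, adjusted p = 0.0443). Shmt2, a mitochondrial serine hydroxymethyltransferase, was higher in KR-N-/- than in KR-N+/- (0.82, SE 0.14, adjusted p = 0.001) and lower in KHR-N-/- than in KR-N-/- (-0.43, SE 0.14, adjusted p = 0.0464). Of 28 genes of pyruvate dehydrogenase and the citrate cycle 21 were measured, and none passed under limma in the comparisons among KHR tumours. The shares of all genes were 7.34% in KHR-N-/- against KHR, 1.25% in KHR-N+/- against KHR and 0.103% in KHR-N-/- against KHR-N+/-. Pdhb, a subunit of pyruvate dehydrogenase, and Sdhb, a subunit of succinate dehydrogenase, were lower in KR-N-/- than in KR-N+/- (-0.50, adjusted p = 0.0247, and -0.48, adjusted p = 0.015) and lower there than in KHR-N-/-, which stood 0.81 (adjusted p = 0.00166) and 0.45 (adjusted p = 0.0255) above. Ogdh, of the oxoglutarate dehydrogenase complex, was lower in KHR-N-/- than in KR-N-/- (-0.61, SE 0.14, adjusted p = 0.00879).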
